A study of Mus musculus with 6 samples.

Results

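The 40 genes described here encode the synaptic vesicle and exocytosis machinery, and they were followed through 6 replicate primary cultures of mouse dorsal root ganglia, which hold the cell bodies of sensory neurons and their glia next to the spinal cord. They were chosen by name from the 45703 genes of the count table, and all 40 were found there. The ganglia came from wild-type C57BL/6 mice, called adult in the labels and aged 4 to 6 weeks. Dissociated cells were kept on poly-L-lysine for 7 days in DMEM/F12 medium containing 10% fetal calf serum, to which EGF and FGF, both 10 ng/ml, were added. Each RNA sample pooled 2 dishes, and every culture belonged to the same group, so the cultures were compared with each other and the genes with each other, not with a control. The labels do not say whether each replicate came from its own animals, so p-values speak only of the spread between these samples.

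Neurons release transmitter when calcium makes a docked vesicle fuse with the plasma membrane. The vesicle SNARE protein VAMP zips together with SNAP25 and a syntaxin on the plasma membrane, synaptotagmins sense the calcium, complexins clamp and assist the fusion, and RIM, Munc13, Bassoon and Piccolo prepare vesicles at the active zone. Sensory neurons fill small vesicles with glutamate through SLC17 transporters and pack neuropeptides with granins into dense-core vesicles. SNAP23, syntaxin 4, VAMP3 and the synaptophysin-like protein encoded by Sypl are paralogs that many cell types use for general secretion and membrane traffic.

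The libraries held 20070639 to 22968642 counts. CPM is the count of a gene per 1000000 counts of its library, and CPM per kb divides this by the combined length of the gene's exons in kilobases, so that genes of different length can be set side by side. The 40 genes together took from 0.174% of the counts in replicate 5 to 0.261% in replicate 3. All 8 neuron markers (Tubb3, Stmn2, Prph, Uchl1, Elavl4, Nefl, Nefm and Rbfox3) were at 1 CPM or more in all 6 libraries, and none was at 0; their sum lay between 971 CPM in replicate 5 and 2096 CPM in replicate 3. The 5 glial lineage markers summed to 4094 to 5928 CPM. Replicate 5 stood apart: its 6 fibroblast markers summed to 13967 CPM against 3338 to 7446 CPM in the other libraries, and its 4 endothelial markers to 100.2 CPM against at most 30.2 CPM. Of the endothelial sum in replicate 5, 75.3 CPM came from Cdh5, the only 1 of the 4 at 1 CPM or more in all libraries. The 5 macrophage markers summed to 9.67 to 98.0 CPM and the 5 mural markers, those of contractile vessel cells, to 271 to 1510 CPM, both with the lowest value in replicate 1 and the highest in replicate 5. Single markers could differ from their sum: the fibroblast marker Lum was highest in replicate 4 and the macrophage marker Aif1 in replicate 3. The mural markers Cspg4 and Myh11 were highest in replicate 6. In RNA from whole dishes, fewer cells of a type and less RNA per cell cannot be told apart.

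Promoter sequences were examined for 33 of the 40 genes, those matched by symbol in the RefSeq table for GRCm38.p6, which gives 43 windows of 250 bases before and 50 bases after annotated starts. Of these 33 genes, 3 held the cAMP response element TGACGTCA, a site known to bind CREB: the synapsin gene Syn1 and the granin genes Scg2 and Chgb. The letters read the same on both strands. They were in 3 of the 43 windows of these genes, against 1.79% of all 32851 windows. The left part of the RE1 element, TTCAGCACC, searched on both strands, was found in Syn1, Scg2 and Unc13a. This was 3 of the 43 windows, against 0.371% of all windows. RE1 is the element through which the repressor REST acts on neuronal genes. The palindromic element of the factor NRF1 was in 2 of the 43 windows, those of Bsn and Snap23, against 0.971% of all windows. The upstream sequences of the 3 genes with the cAMP response element are shown because they carry this element in common. Each is the 250 bases before the start, 5′ to 3′ on the gene's strand, with the cAMP response element and, in Syn1 only, the left part of RE1 in capitals.
Syn1 (chrX:20920919-20921168, minus strand): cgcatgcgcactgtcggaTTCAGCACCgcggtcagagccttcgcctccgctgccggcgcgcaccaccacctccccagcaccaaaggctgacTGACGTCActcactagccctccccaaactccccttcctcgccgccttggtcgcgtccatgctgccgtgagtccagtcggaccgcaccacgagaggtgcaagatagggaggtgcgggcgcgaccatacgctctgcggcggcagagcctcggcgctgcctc
Scg2 (chr1:79440027-79440276, minus strand): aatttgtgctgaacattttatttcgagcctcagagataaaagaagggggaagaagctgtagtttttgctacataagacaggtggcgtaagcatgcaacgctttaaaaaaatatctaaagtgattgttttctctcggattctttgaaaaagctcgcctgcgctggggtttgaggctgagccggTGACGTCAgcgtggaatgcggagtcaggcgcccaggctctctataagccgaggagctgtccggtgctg
Chgb (chr2:132781392-132781641, plus strand): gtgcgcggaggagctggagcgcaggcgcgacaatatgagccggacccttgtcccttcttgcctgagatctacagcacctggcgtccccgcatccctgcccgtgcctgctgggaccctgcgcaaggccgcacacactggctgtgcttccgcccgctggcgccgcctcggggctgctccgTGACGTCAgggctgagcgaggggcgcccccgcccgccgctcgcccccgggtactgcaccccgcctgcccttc
The cAMP response element began 159 bases before the start in Syn1, 68 bases before it in Scg2 and 72 bases before it in Chgb. In Scg2 the RE1 letters lay on the other strand across the start itself, so they are not wholly inside the stretch shown. No matches of the 3 searched motifs overlapped each other in these windows. A match of letters describes the sequence and is no measurement of binding.

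Of the 40 genes, 39 reached 1 CPM in all 6 libraries, whereas 30.4% of all genes in the table did. The exception was Slc32a1 (chromosome 2, 158607260 to 158615747), which encodes the vesicular transporter for GABA and glycine. It had 0 counts in every library, where 3 counts would correspond to 0.131 to 0.149 CPM, so its transcript was not detectable at this depth. Levels of the 39 detected genes spanned from 0.304 ± 0.0599 CPM per kb for Syt3 to 109 ± 10.3 CPM per kb for Syt11 (SD, n = 6). The level per kb depends on which length is used: with the longest principal transcript of the GENCODE annotation in place of combined exons, a choice made after the data were seen, the mean moved by more than 1.5-fold for 10 of the 39 genes (Syt3, Syt4, Syt7, Stx4a, Syn2, Sypl, Sv2c, Rims2, Unc13b and Scg3). The counts stayed those over the combined exons. Where the 2 lengths differ, count and principal length therefore cover different bases, and such values show only how far length matters. With combined exon length the median of the 39 genes was 6.02 CPM per kb, against 8.11 CPM per kb over the 13911 genes detected in all libraries.

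**Figure D1:**
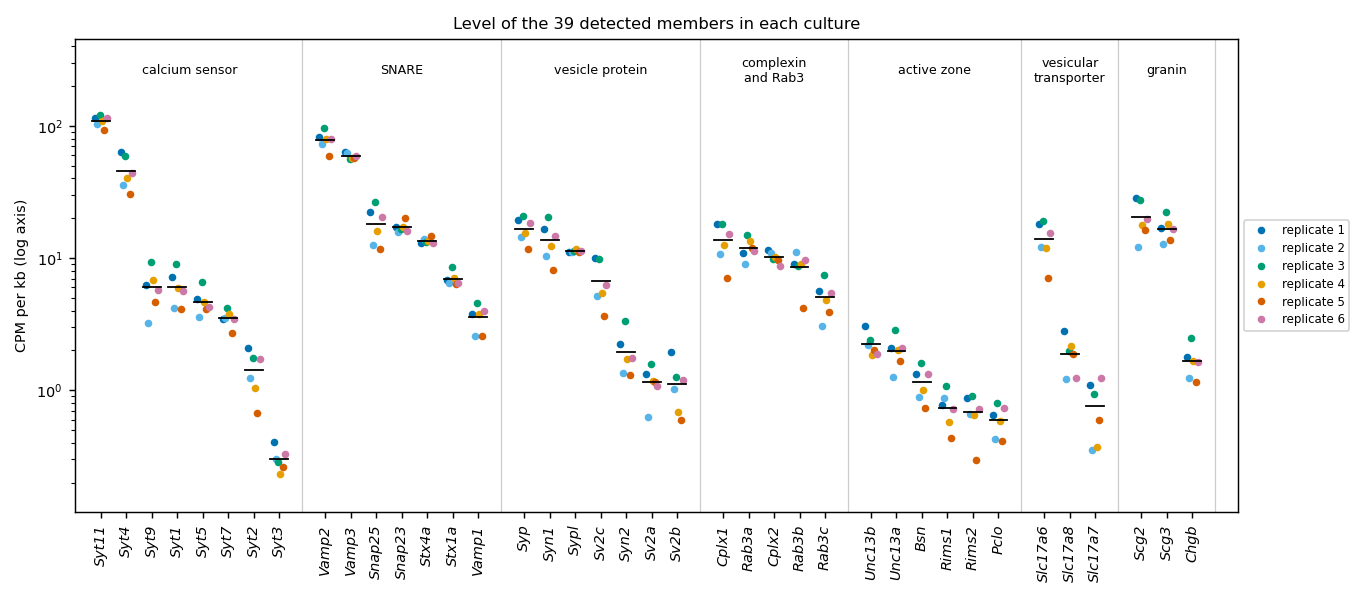
CPM per kb of combined exon length (log axis) of the 39 detected genes in each culture, grouped by role; points are the 6 replicates and bars their means. Syt11 and Vamp2 sit highest, at means of 109 and 78.0 CPM per kb, and Syt3 lowest, at 0.304 CPM per kb.

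Among the synaptotagmins, the 2 members that are known to bind calcium weakly or not at all through their first C2 domain were by far the most abundant. Syt11, a regulator of membrane traffic, averaged 109 ± 10.3 CPM per kb, and Syt4, found on dense-core vesicles, 45.7 ± 12.9 CPM per kb (SD, n = 6). Together they supplied most of the summed level of the 8 synaptotagmins, with 62.2% ± 4.26 from Syt11 and 25.5% ± 3.48 from Syt4. The fast calcium sensor Syt1 contributed 3.34% ± 0.541. With principal transcript length the shares were 48.3% for Syt11, 30.1% for Syt4 and 2.89% for Syt1, and Syt4 averaged 70.2 CPM per kb. Syt11 (chromosome 3, 88744699 to 88775159) ran from 469 CPM in replicate 5, through a median of 562 CPM, to 615 CPM in replicate 3. Every library gave Syt11 a fractional count, as happens when reads are divided between places or genes, and its level is less certain for that. Syt4 (chromosome 18, 31437808 to 31447415) had 184 CPM in replicate 5, a median of 254 CPM and 378 CPM in replicate 1. The spread of Syt4, with a coefficient of variation (CV, the SD as a percentage of the mean) of 28.3%, was wider than that of Syt11, at 9.43%.

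Within every library Syt4 was below Syt11, with a mean difference in log2 CPM per kb of -1.29 ± 0.286 (SD, n = 6). With principal transcript length this difference was -0.69. Syt1 was in turn below Syt4, with a mean difference of -2.92 ± 0.160. Both orders held in 6 of 6 libraries and passed an exact two-sided permutation of the signs (p = 0.0312, the smallest that 6 libraries allow, adjusted p = 0.0446 over the 20 pairs of related genes compared here). Unless stated otherwise, pair differences below are on the scale of log2(CPM per kb + 0.1), and those called different have these same p-values.

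The classical fast sensors were lower. Syt1 (chromosome 10, 108497650 to 109010980) had 22.3 CPM in replicate 5, a median of 31.2 CPM and 48.8 CPM in replicate 3. Syt2, the other fast sensor, known from large myelinated sensory neurons and motor terminals, ran from 5.06 CPM in replicate 5 over a median of 11.2 CPM to 15.8 CPM in replicate 1. Replicate 5 was thus lowest for both genes, while the highest culture differed. Syt1 exceeded Syt2 by 2.03 ± 0.379 in 6 of 6 libraries, about 4.10-fold per kb. Syt9, a fast sensor of dense-core and synaptic vesicles, reached 6.02 ± 2.08 CPM per kb, close to the 6.00 ± 1.86 CPM per kb of Syt1. Syt5 averaged 4.69 ± 1.04 CPM per kb, and Syt7, a slow sensor with high calcium affinity, 3.52 ± 0.487 CPM per kb (SD, n = 6). The place of Syt7 rests on its length, which is 11.2 kb for combined exons and 1.34 kb for the principal transcript. With the latter it averaged 29.4 CPM per kb, above Syt1, Syt5 and Syt9, and supplied 12.9% of the synaptotagmin sum in place of 2.00%. Syt3 had only 21 to 42 counts per library.

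The SNARE genes differed in how far their level moved between cultures, with a CV from 4.81% for Stx4a to 32.1% for Snap25. Snap25 (chromosome 2, 136713439 to 136782428), the neuronal plasma membrane SNARE, was at 30.3 CPM in replicate 5, had a median of 46.9 CPM and reached 69.1 CPM in replicate 3. Its broadly expressed paralog Snap23 (chromosome 2, 120567655 to 120601255) was at 47.8 CPM in replicate 2, had a median of 51.0 CPM and reached 60.5 CPM in replicate 5. The culture with the least Snap25 thus had the most Snap23, and the CV was 32.1% for Snap25 against 8.94% for Snap23. Per kb the levels were close, with 18.2 ± 5.86 CPM per kb for Snap25 and 17.1 ± 1.53 CPM per kb for Snap23. Snap25 was higher in 3 libraries and Snap23 in the other 3, and the mean difference of 0.034 ± 0.531 was within the replicate spread (p = 0.938 by exact permutation of signs, adjusted to 0.938). Snap25 supplied 61.7% of the summed level of the 2 genes in replicate 3 and 37.0% in replicate 5.

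Vamp2 (chromosome 11, 69088528 to 69092381), the main vesicle SNARE of synapses, was the highest SNARE gene per kb, at 78.0 ± 11.9 CPM per kb. It ran from 128 CPM in replicate 5, over a median of 171 CPM, to 207 CPM in replicate 3. Vamp3, known as cellubrevin, lay between 118 and 134 CPM with a CV of 5.02%, and in contrast to Vamp2 its lowest value was in replicate 3. Vamp2 exceeded Vamp3 by 0.39 ± 0.245 in 6 of 6 libraries, a difference that passed the test, but in replicate 5 the excess was 0.045. Vamp1, the isoform of fast motor and large sensory endings, averaged 3.56 ± 0.815 CPM per kb, and Vamp2 exceeded it by 4.43 ± 0.171 in 6 of 6 libraries, a 21.6-fold difference per kb that passed the test.

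Of the 2 syntaxins, the broadly used Stx4a was the higher. It had 13.5 ± 0.650 CPM per kb against 6.98 ± 0.843 CPM per kb for Stx1a, the partner of SNAP25 at synapses, and the difference, -0.95 ± 0.198 for Stx1a minus Stx4a, held in 6 of 6 libraries and passed the test. With the length of the longest principal transcript in place of combined exon length, the difference widened to -2.42. Stx4a varied little, from 62.1 to 70.1 CPM, and was highest in replicate 5. Stx1a had its lowest value, 16.3 CPM, in replicate 5 and its highest, 22.0 CPM, in replicate 3, with a median of 17.1 CPM. Counts of Stx4a and of Snap23 were fractional in 5 of 6 libraries.

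Among vesicle proteins, the synaptophysin and synapsin genes moved between cultures while Sypl did not. Syp (chromosome X, 7638580 to 7653256), the synaptophysin gene, averaged 16.7 ± 3.40 CPM per kb and Syn1 (chromosome X, 20860511 to 20920918) 13.8 ± 4.43 CPM per kb. Synapsins tether vesicles in the reserve pool. Syn1 was at 26.3 CPM in replicate 5, had a median of 43.3 CPM and reached 65.8 CPM in replicate 3. Syn2 followed the same order at its extremes, from 7.50 CPM in replicate 5 over a median of 10.1 CPM to 19.2 CPM in replicate 3. The ratio between the 2 synapsins was steady: Syn1 exceeded Syn2 by 2.77 ± 0.162 in 6 of 6 libraries and made up 86.04% to 89.2% of their summed level. With principal transcript length the difference was 1.72 and the share of Syn1 74.4% to 79.6%. Syn1 overlaps Timp1 and Araf on the opposite strand, and the strand setting of the counting is not given in the sources used here. Timp1 was lowest in replicate 1, at 73.7 CPM, and highest in replicate 5, at 323 CPM, the culture in which Syn1 was lowest. Araf had the same extremes as Syn1, with 93.7 CPM in replicate 5 and 111 CPM in replicate 3. Whether reads of either gene entered the count of Syn1 was not tested.

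Sypl was the steadiest of the 39 genes, with 96.1 to 102 CPM and a CV of 2.34%. Syp ran from 28.9 CPM in replicate 5 over a median of 42.3 CPM to 51.4 CPM in replicate 3. Syp exceeded Sypl by 0.53 ± 0.302 in 6 of 6 libraries and passed the test, but the call depended on the length used. With principal transcript length the difference was -0.32 (exact permutation of signs, adjusted p = 0.0781), so the order of the 2 genes is not settled.

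SV2 proteins are vesicle glycoproteins, and SV2C and its relatives are the receptors of botulinum neurotoxin A. In brain SV2A is the widespread form, while here Sv2c was the highest of the 3, supplying 74.0% ± 3.49 of their summed level per kb, or 56.3% ± 3.92 with principal transcript length. For Sv2c that transcript, at 9.10 kb, is longer than its combined exons, at 4.36 kb. The second share thus rests on a length that includes bases that were not counted. Sv2c had 15.9 CPM in replicate 5, a median of 25.5 CPM and 44.0 CPM in replicate 1. Sv2a reached 2.46 to 6.23 CPM and Sv2b 4.11 to 13.4 CPM. Sv2a was below Sv2c in 6 of 6 libraries (mean difference -2.39 ± 0.482, or -1.49 with principal transcript length) and passed the test, whereas Sv2a and Sv2b differed by 0.097 ± 0.615, within the replicate spread (p = 0.688 by exact permutation of signs, adjusted to 0.724). Sv2b was highest in replicate 1 and lowest in replicate 5.

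**Figure D2:**
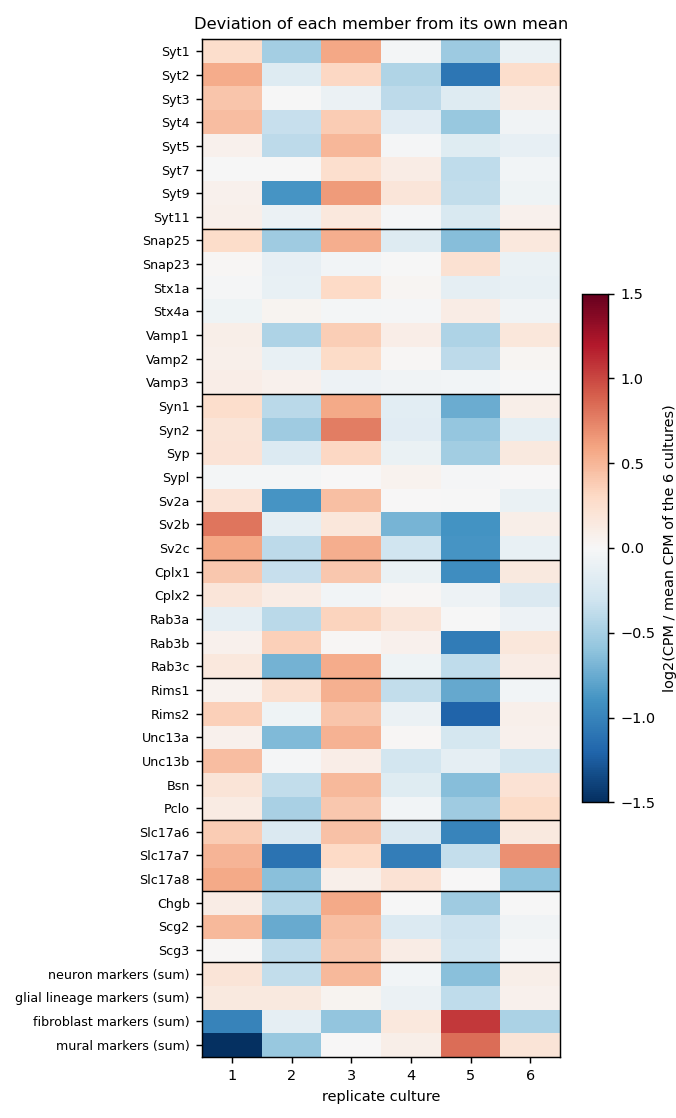
Deviation of each detected gene from its own mean over the 6 cultures, as log2 of CPM over the mean CPM (colour), for genes grouped by role (rows) and replicate cultures (columns); the last 4 rows show summed cell type markers. The neuron marker row is highest in replicate 3 and lowest in replicate 5. Of the 39 genes, 23 were highest in replicate 3, against 20% of all detected genes. Replicate 5 held the lowest value of 22, against 26.6%, and these were only in part the same genes. Sypl, Stx4a and Vamp3 varied least.

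Complexin genes were both expressed. Cplx1 was at 15.6 CPM in replicate 5, had a median of 30.4 CPM and reached 39.5 CPM in replicate 1, with a CV of 31.5%. Cplx2 was steadier, from 54.1 CPM in replicate 6 over a median of 62.5 CPM to 71.4 CPM in replicate 1, with a CV of 9.73%. Per kb of combined exons their difference did not exceed the spread, with 13.6 ± 4.29 CPM per kb for Cplx1 and 10.1 ± 0.986 CPM per kb for Cplx2 (difference 0.36 ± 0.509, higher Cplx1 in 4 of 6 libraries, p = 0.188 by exact permutation of signs, adjusted to 0.234). Without length scaling Cplx2 was the higher, with a difference of -1.14 that passed (exact permutation of signs, adjusted p = 0.0368). With principal transcript length the difference was 0.026 and did not pass (exact permutation of signs, adjusted p = 0.906).

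RAB3 proteins are small GTPases that bring vesicles to the active zone through RIM. Rab3a averaged 11.9 ± 2.09 CPM per kb, Rab3b 8.63 ± 2.34 CPM per kb and Rab3c 5.04 ± 1.51 CPM per kb. Their relative Rab3d, outside the set of genes described here, was higher, at 30.1 ± 4.05 CPM per kb. Rab3a exceeded Rab3c by 1.26 ± 0.292 in 6 of 6 libraries and passed the test. The Rab3c gene has 9.215 kb of combined exons against 1.56 kb for Rab3a, and without length scaling the order turned, with Rab3c at 46.5 ± 13.9 CPM and Rab3a at 18.6 ± 3.27 CPM. Rab3b was at 13.9 CPM in replicate 5 and at 29.0 to 36.8 CPM in the other 5 cultures, with its highest value in replicate 2, where Rab3a, at 14.0 CPM, and Rab3c, at 28.3 CPM, were lowest. Rab3a and Rab3b differed by 0.50 ± 0.605, which was within the spread (p = 0.125 by exact permutation of signs, adjusted to 0.167).

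Active zone genes had low levels per kb, from 0.600 ± 0.157 CPM per kb for Pclo to 2.24 ± 0.462 CPM per kb for Unc13b. These are long genes with exon lengths up to 22.2 kb, so their counts were still 65 or more in every library. With principal transcript length Rims2 averaged 2.25 and Unc13b 6.92 CPM per kb. Bsn, the Bassoon gene, was at 14.2 CPM in replicate 5, had a median of 22.4 CPM and reached 30.8 CPM in replicate 3. Pclo, the Piccolo gene, had the same extremes, from 9.17 CPM over a median of 13.7 CPM to 17.7 CPM. The difference between these structurally related scaffolds was the steadiest of the 20 pairs, 0.83 ± 0.104 in favour of Bsn in 6 of 6 libraries, and passed the test.

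The RIM genes were at 0.741 ± 0.223 CPM per kb for Rims1 and 0.685 ± 0.220 CPM per kb for Rims2, and their difference of 0.11 ± 0.257 did not pass (p = 0.312 by exact permutation of signs, adjusted to 0.368). Unc13a, which primes vesicles at most central synapses, had 13.5 CPM in replicate 2, a median of 22.0 CPM and 30.8 CPM in replicate 3. Unc13b ran from 36.2 CPM in replicate 4 over a median of 41.7 CPM to 60.5 CPM in replicate 1, so the 2 Munc13 genes peaked in different cultures. On the opposite strand, Unc13b overlaps Fam214b, which had 104 to 129 CPM and the same lowest and highest culture. Unc13a overlaps Colgalt1, also on the opposite strand, at 127 to 189 CPM, lowest in replicate 1 and highest in replicate 5. Whether their reads entered the counts of the Munc13 genes was not tested. The difference per kb between the 2 Munc13 genes was -0.18 ± 0.414 (Unc13a minus Unc13b, p = 0.344 by exact permutation of signs, adjusted to 0.382). For both pairs the outcome depended on gene length: with principal transcript length, Rims1 minus Rims2 was -1.33 and Unc13a minus Unc13b was -1.70, and both passed (exact permutation of signs, adjusted p = 0.0417).

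Vesicular glutamate transporters were represented mainly by Slc17a6, the gene of VGLUT2. Slc17a6 (chromosome 7, 51621830 to 51671126) was at 31.6 CPM in replicate 5, had a median of 61.8 CPM and reached 85.2 CPM in replicate 3. Slc17a7, encoding VGLUT1, the form of large proprioceptive and mechanoreceptive afferents, stayed between 1.05 and 3.63 CPM, or 22 to 76 counts. Slc17a8, encoding VGLUT3, ran from 5.74 to 13.2 CPM. Slc17a6 supplied 83.3% ± 5.23 of the summed level of the 3 genes, Slc17a8 12.1% ± 4.78 and Slc17a7 4.61% ± 1.82. The excess of Slc17a6 was 4.07 ± 0.574 over Slc17a7 and 2.81 ± 0.63 over Slc17a8, each in 6 of 6 libraries and past the test. In replicate 5 the share of Slc17a6 was lowest, 73.9%, and that of Slc17a8 highest, 19.8%.

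Granins drive the formation of dense-core vesicles. Scg2 (chromosome 1, 79434366 to 79440026), the secretogranin II gene, was at 32.8 CPM in replicate 2, had a median of 50.7 CPM and reached 77.3 CPM in replicate 1. Scg3, which links granins to the vesicle membrane and averaged 16.7 CPM per kb of combined exons and 28.8 CPM per kb of principal transcript, ran from 52.7 CPM in replicate 2 over a median of 68.7 CPM to 91.7 CPM in replicate 3. Chgb (chromosome 2, 132781642 to 132795079), the chromogranin B gene, was far lower, from 2.72 CPM in replicate 5 over a median of 3.93 CPM to 5.86 CPM in replicate 3. Chgb was below Scg2 in 6 of 6 libraries, with a mean difference of -3.51 ± 0.264, an 11.4-fold difference per kb that passed the test. The 2 genes share the cAMP response element at nearly the same distance from their starts, 72 and 68 bases, and differed both in level and in the culture with the lowest value.

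**Figure D3:**
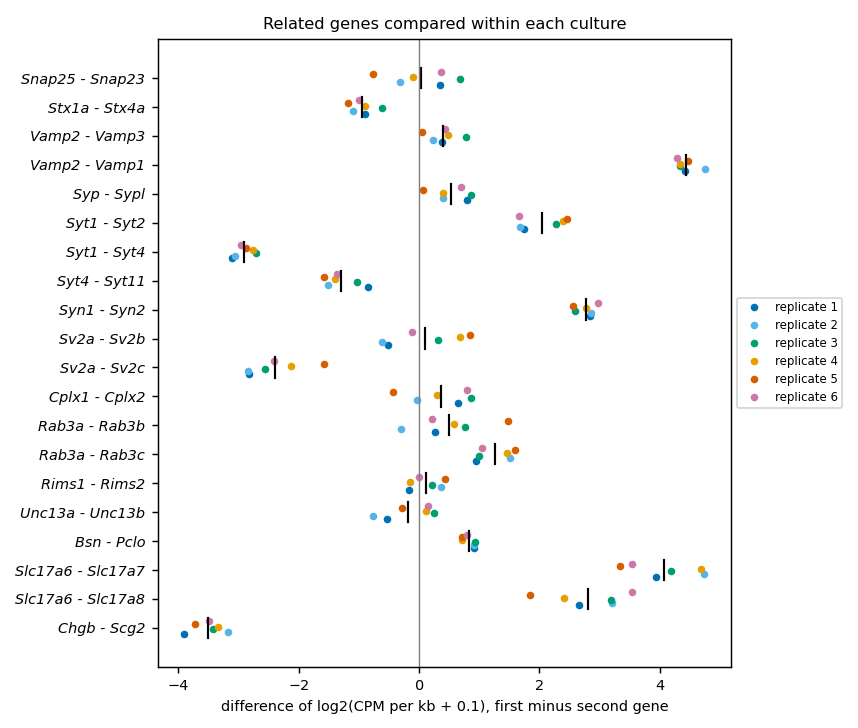
Difference of log2(CPM per kb + 0.1) between 2 related genes within each culture (horizontal axis) for the 20 pairs compared (vertical axis); points are the 6 replicates and bars their means. In 14 pairs all 6 points lie on the same side of 0; in the pair of Snap25 and Snap23 they span from -0.76 to 0.68.

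Lowest and highest values of the genes fell unevenly over the cultures. Replicate 5 held the lowest value of 22 of the 39 detected genes, where it held the lowest value of 26.6% of all 13911 detected genes, and replicate 3 held the highest value of 23, against 20% of all. Replicate 2 was lowest for another 12, against 17.4% of all, and these included Scg2, Scg3, Syt9, Unc13a, Rab3a and Rab3c. The 2 genes that were highest in replicate 5 were Snap23 and Stx4a, against 28.9% of all detected genes. Replicate 1 was highest for 11 genes, against 18.6%, and lowest for 1, against 23.4%. Replicates 3, 4 and 6 were lowest for 1, 2 and 1 genes, against 7.85%, 8.54% and 16.1% of all. Replicates 2, 4 and 6 were each highest for 1 gene, against 10.9%, 9.14% and 12.5%. Counting noise alone did not account for the spread in 37 of the 39 genes (chi-square test of the 6 counts, Benjamini-Hochberg adjusted p-value under 0.05 over 14998 genes), where 76.3% of all genes tested were called. The exceptions were Sypl (adjusted p = 0.560) and Syt3 (adjusted p = 0.314), the latter with few counts. Against genes of similar abundance, edgeR's quasi-likelihood fit called 0 of the 39 at an adjusted p-value under 0.05, as it did for all genes (0.00%). At an unadjusted p-value under 0.05 it listed 7, Snap25, Syn1, Sv2c, Cplx1, Rab3c, Slc17a6 and Scg2, where 5.39% of all genes had such a value. In data simulated with the observed spread between genes, this test recovered 0 of 200 changed genes, so its 0 says nothing about how alike the genes varied.

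The SD of log2(CPM + 0.1) was then measured relative to neuron markers, by subtracting the mean log2(CPM + 0.1) of the 8 markers in each library, a step chosen after the values had been seen. The SD over the 6 cultures became smaller for 27 of the 39 genes, against 8.03% of all detected genes. The marker mean itself had an SD of 0.400, so any gene with an SD under 50% of that had to grow. Before the step the median SD was 0.406 for the 39 genes and 0.161 for all detected genes. The shares over all genes are therefore not matched for spread, and the contrast does not show which cells the genes came from. Without replicate 5 it became smaller for 26 of the 39, against 9.57% of all detected genes. It fell to no more than 50% of its size for 14 genes, against 1.94% of all: Syt1, Syt4, Snap25, Vamp1, Syn1, Syn2, Syp, Cplx1, Rab3c, Unc13a, Bsn, Pclo, Slc17a6 and Chgb. For Snap25 it went from 0.47 to 0.11, for Bsn from 0.42 to 0.092 and for Chgb from 0.39 to 0.073. For the other 12 genes it grew. They comprised the broadly used paralogs Snap23, Stx4a, Vamp3 and Sypl and, beyond those, Cplx2, Syt11, Syt7, Syt3, Stx1a, Rab3a, Unc13b and Slc17a8. For Sypl, Stx4a, Vamp3, Snap23, Syt11, Cplx2 and Stx1a the SD was under 50% of that of the marker mean. Their growth was fixed by their small spread and does not separate broadly used from neuronal genes. Sypl went from 0.033 to 0.39 and Cplx2 from 0.14 to 0.44.

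Subtracting the mean of the 5 glial lineage markers instead reduced the SD of 22 genes, against 16.5% of all detected genes. The SD relative to glial markers was below that relative to neuron markers for 13 of the 39, whereas this held for 89.9% of all detected genes. The mean of the glial markers had an SD of 0.225, against 0.400 for the neuron markers. A gene with little spread of its own therefore gives the smaller SD with glial markers. Rab3b was among the 13, with an SD of 0.50 by itself, 0.48 relative to neuron markers and 0.29 relative to glial markers. The part that each cell type had in these levels was not tested, since cells were not separated before RNA extraction.

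**Figure D4:**
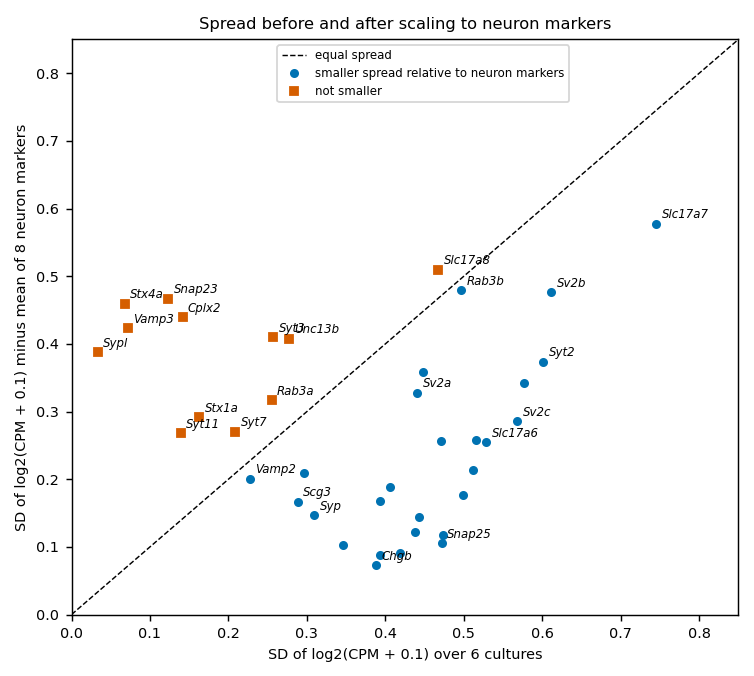
SD of log2(CPM + 0.1) over the 6 cultures (horizontal axis) against the SD after subtracting the mean of 8 neuron markers within each culture (vertical axis) for the 39 detected genes. The 27 circles below the dashed line of equal spread became steadier relative to neuron markers, against 8.03% of all detected genes. Snap25 went from 0.47 to 0.11. The 12 squares did not become steadier. For Sypl, Stx4a, Vamp3, Snap23, Syt11, Cplx2 and Stx1a among them, this was fixed by their small spread.

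In 8 relations across the 6 cultures, a gene of the machinery was set against a cell type marker on the scale of log2(TMM-scaled CPM + 0.5), TMM being edgeR's correction of library sizes. Snap25 followed Stmn2, a marker of neurons and of their growing axons, in the same order in every culture, with a Pearson coefficient r = 0.96 (p = 0.00139 over all exact permutations, 0.0111 after adjustment) and a Spearman coefficient rho = 1.00 (p = 0.00278 over all exact permutations, 0.0222 after adjustment). Slc17a6 with Stmn2 gave r = 0.97 (p = 0.00417 over all exact permutations, 0.0167 after adjustment) and rho = 0.94 (p = 0.0167 over all exact permutations, 0.0444 after adjustment). Syt1 with Stmn2 gave r = 0.93 (p = 0.00833 over all exact permutations, 0.0222 after adjustment) and rho = 0.94 (p = 0.0167 over all exact permutations, 0.0444 after adjustment). When replicates 3 and 5, whose Stmn2 levels lay farthest from its median, were set aside, r was 0.98 for Snap25, 0.92 for Slc17a6 and 0.93 for Syt1.

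Scg2 with Stmn2 gave r = 0.76 (p = 0.0722 over all exact permutations, 0.144 after adjustment) and rho = 0.89 (p = 0.0333 over all exact permutations, 0.0667 after adjustment), and did not pass, although r was 0.99 without replicates 3 and 5. Its value in replicate 5, the culture with the least Stmn2, was above that in replicate 2. Snap23 with the fibroblast marker Col1a1 gave r = 0.76 (p = 0.0958 over all exact permutations, 0.153 after adjustment) and rho = 0.37 (p = 0.497 over all exact permutations, 0.796 after adjustment), and r was -0.22 without replicates 3 and 5. With only replicate 3 left out r was 0.73, and with only replicate 5 left out it was -0.059, so r rested on replicate 5. Vamp3 with Col1a1 gave r = -0.20 and rho = -0.029 (exact permutation p = 0.739 and 1.00, adjusted 0.792 and 1.00). Of the 2 abundant synaptotagmins, Syt11 with the glial marker Sox10 gave r = 0.37 and rho = 0.20 (exact permutation p = 0.438 and 0.714, adjusted 0.583 and 0.816), and Syt4 with Sox10 gave r = 0.16 and rho = 0.26 (exact permutation p = 0.792 and 0.658, adjusted 0.792 and 0.816). Without replicates 2 and 5, r was 0.74 for Syt11 and 0.44 for Syt4. Vamp3 without replicates 3 and 5 gave r = -0.40. All genes of a library share its total, and the labels give no culture or sequencing batch within which the relations could be recomputed.

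**Figure D5:**
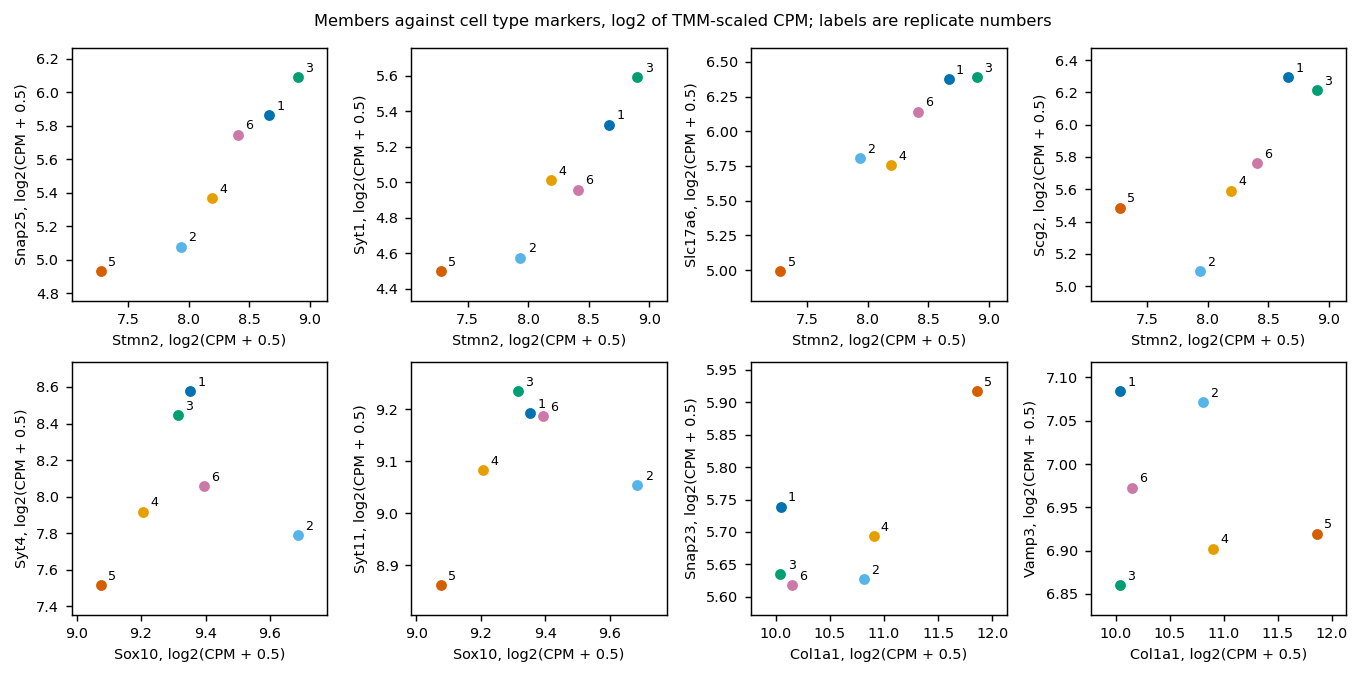
Level of a member (vertical axis) against a cell type marker (horizontal axis), both as log2(TMM-scaled CPM + 0.5), in the 6 cultures, labelled by replicate number. Snap25 rises with Stmn2 through all 6 cultures (rho = 1.00), whereas Snap23 is set apart only in replicate 5.

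A wider list of 63 further genes of exocytosis, vesicle recycling and peptide processing was measured the same way. Of these, 52 reached 1 CPM in all 6 libraries (82.5%, against 30.4% of all genes of the table), 3 had at most 3 counts in every library (Doc2a, Cplx3 and Slc18a3, the last being the vesicular acetylcholine transporter gene), and 8 lay between. In the chi-square test 51 of the 54 tested varied beyond counting noise, where 76.3% of all genes tested did. The 8 with the highest level per kb were Cpe, Sncg, Esyt1, Pam, Vamp8, Syngr2, Napa and Snap47. Cpe, encoding carboxypeptidase E, which trims neuropeptides, reached 311 ± 68.8 CPM per kb, and Sncg, encoding gamma-synuclein of sensory neurons, 166 ± 39.6 CPM per kb (SD, n = 6). Sncg was lowest in replicate 5, at 83.8 CPM, and highest in replicate 3, at 163 CPM, as Snap25 was. Cpe instead was highest in replicate 1, at 953 CPM, and lowest in replicate 6, at 518 CPM. Among those detected, the widest SD of log2 levels belonged to Scg5 (0.84), Rab27a (0.65), Pcsk1 (0.55) and Ppfia2 (0.52). Scg5, the chaperone 7B2 of prohormone convertase 2, was at 1.24 CPM in replicate 5 and at 5.72 CPM in replicate 3. Rab27a, a GTPase of secretory granules in many cell types, was lowest in replicate 2, at 2.00 CPM, and highest in replicate 3, at 6.62 CPM. Pcsk1, a convertase that cleaves prohormones, and Ppfia2, an active zone scaffold of the liprin family, were both lowest in replicate 5 and highest in replicate 1.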

How the data were processed

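The authors deposited a table of raw estimated counts, partly fractional (13.4% to 14.7% of values per library), for 6 cultures. The submitters' processing notes name bcl2fastq 2.20.0.422, cutadapt 2.5, STAR 2.7.2b, featureCounts 1.6.4 and GRCm38.p6. The strand setting and the treatment of multi-matching reads are not given in the sources used here. The table had 0 further per-sample columns. From the counts and the combined exon length in the deposited table, CPM and CPM per kb were computed with pandas 2.3.3. Rounded counts entered edgeR 4.0.16 and, as an alternative, DESeq2 1.42.0, under R 4.3.3. The edgeR filter filterByExpr kept 14998 genes, and library sizes were scaled by TMM (factors 0.977 to 1.02). On simulated data the chi-square test of the 6 cultures recovered 196 of 200 genes changed 2-fold in 3 libraries, with 8 other calls among 14998. The rule for names took all 40 members and, of the wider list, the 8 most abundant genes, the 4 most variable detected ones and those with at most 3 counts in every library. Rab3d of the wider list was named in addition, beside the Rab3 members. Members, lists and pairs were chosen with earlier results of these data known. Alternatives were library scaling, filters, pseudocounts, gene length and leaving out each replicate. Depth allows about 0.131 to 0.149 CPM at 3 counts, for counting error only.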

Additional observations from a re-analysis of the deposited data

Results flagged for a closer look

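Each of the 40 genes and 20 pair differences was examined for a culture far from the other 5, by Dixon's ratio of gap to range at the 95% level. The limit was passed in 3 of 60 cases, and chance gives about 3. Rab3b had a ratio of 0.660, with 13.9 CPM in replicate 5 against 29.0 to 36.8 CPM in the others. Stx1a had a ratio of 0.666, with 22.0 CPM in replicate 3 against 16.3 to 18.2 CPM. Snap23 had a ratio of 0.634, with 60.5 CPM in replicate 5 against 47.8 to 52.4 CPM; replicate 5 was also the culture with the highest fibroblast, mural and endothelial marker sums, whose part in these values was not tested.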

How the results depend on the processing

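Without length scaling the pair difference turned for Snap25 and Snap23 (-0.19), Syp and Sypl (-1.27), Sv2a and Sv2b (-0.68), Cplx1 and Cplx2 (-1.14), Rab3a and Rab3b (-0.58), Rab3a and Rab3c (-1.28) and Rims1 and Rims2 (-0.97), and Unc13a minus Unc13b moved to -1.06. Of the pairs that did not pass with combined exon length, those of Cplx, Rims and Unc13 passed here (exact permutation of signs, adjusted p = 0.0368). With principal transcript length, added after the data were seen, it turned for Syp and Sypl (-0.32), Sv2a and Sv2b (-0.32) and Rims1 and Rims2 (-1.33), and Unc13a minus Unc13b moved to -1.70; the Rims and Unc13 pairs passed and Syp minus Sypl did not. These alternatives change nothing but the length used; other causes were not tested. Leaving out single replicates, where 5 libraries cannot pass the exact test, moved r from -0.42 to 0.80 for Syt4 with Sox10, from -0.43 to 0.93 for Syt11 with Sox10, from -0.059 to 0.90 for Snap23 with Col1a1 and from -0.58 to 0.070 for Vamp3 with Col1a1. The lower ends of the first 3 ranges came without replicate 5. The sign of Snap25 minus Snap23 changed in the same way (-0.096 to 0.19), as did that of Sv2a minus Sv2b (-0.052 to 0.24), neither of which passed the test at any length. The other 163 values for pairs and 59 for relations kept their direction, and 320 for mean CPM moved by less than 1 SD. No pairing of samples between groups was possible because all libraries belong to 1 group.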
